A study of Mus musculus with 23 samples.

Results

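The 40 genes described here encode the machinery of the cell division cycle, from the licensing of replication origins to the exit from mitosis. They were chosen by symbol, with no expression value in the rule, but with earlier results of these data known. All 40 were found among the 39017 genes of the deposited count table, and all 40 passed the filter on low counts in each of the 3 model fits used below. The RNA came from whole mouse cortex of animals that carry 1 of 3 substitutions of a single glycine of histone H3.3, made in the gene H3f3a: to arginine (G34R), to valine (G34V) or to tryptophan (G34W). Each mutant is labelled as heterozygous, with 1 wild-type H3f3a allele, and each wild-type (WT) control as carrying 2 wild-type alleles. The adults of 10 weeks were 6 WT, 3 G34R, 3 G34V and 2 G34W animals, all labelled male except G34W animal 2, which is labelled female although its title starts with M, as the titles of the males do. The pups, at postnatal day 7, were 4 WT and 4 G34R animals, with 2 males and 2 females of each genotype. How the alleles were made, the strain and the litters are things the sources used here do not give.

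A cell enters the cycle when D-type cyclins, paired with CDK4 or CDK6, begin to phosphorylate the retinoblastoma family of pocket proteins, which frees E2F factors to switch on the genes of S phase. The MCM2 to MCM7 helicase opens the replication origins, PCNA clamps the polymerase to DNA, and cyclin B with CDK1 then drives mitosis, in which kinesins, kinetochore proteins and the spindle checkpoint part the chromosomes. In the cortex the neurons have left the cycle for good, while glial precursors divide through the first postnatal weeks, and oligodendrocyte precursors and microglia keep some capacity to divide in the adult.

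Total counts ran from 28414057 to 90067111 per animal, and levels are given as CPM, counts scaled to each library's size, with edgeR's TMM factors over all 22 animals. Xist, the X-inactivation RNA, was at a level that matched the sex label in 22 of 22 animals. All 8 cortical neuron markers were measured, with summed levels of 1950 to 2275 CPM at day 7 and 4324 to 5643 CPM at 10 weeks, while the summed choroid plexus markers ranged from 2.64 to 1047 CPM between animals. H3f3a stood at 72.5 ± 3.03 CPM in WT pups and 60.7 ± 1.66 CPM in G34R pups (SD, n = 4 each; edgeR adjusted p = 0.0428), and between 38.4 and 49.8 CPM in every 10-week animal, with no call between genotypes; these counts do not separate the alleles, so they do not check the labels. The 10-week libraries fell into a set of 6 with a mitochondrial protein-coding share of 0.885% to 1.03% (the 3 G34R libraries and 3 WT libraries) and a set of 9 at 1.12% to 1.36% (all G34V and G34W libraries and 4 WT libraries). The labels name no batch, so fits within each set are given below where they bear on a result. Mutant and WT adults also share runs of consecutive animal numbers, whose meaning the labels do not give, and a fit with each run as a block is given where it ends a call. Nothing in the labels says that day-7 and 10-week tissue was processed together, so age and processing cannot be told apart.

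From day 7 to 10 weeks most of the cell cycle genes fell in wild-type cortex. Of the 40 genes, 35 were lower at 10 weeks and 3 were higher by edgeR's quasi-likelihood test at an adjusted p under 0.05, where 34.4% of the 22417 genes tested were lower and 33.3% higher. A fall of at least 2-fold was called for 27 of the 40, against 12.8% of all genes tested. The median log2 change was -1.70 over the 40 genes and -0.01 over all genes. In 34 of the 40 every 10-week WT animal lay below every WT pup, a separation seen in 27.8% of all genes tested. In bulk tissue, fewer dividing cells and less RNA per dividing cell cannot be told apart.

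**Figure D1:**
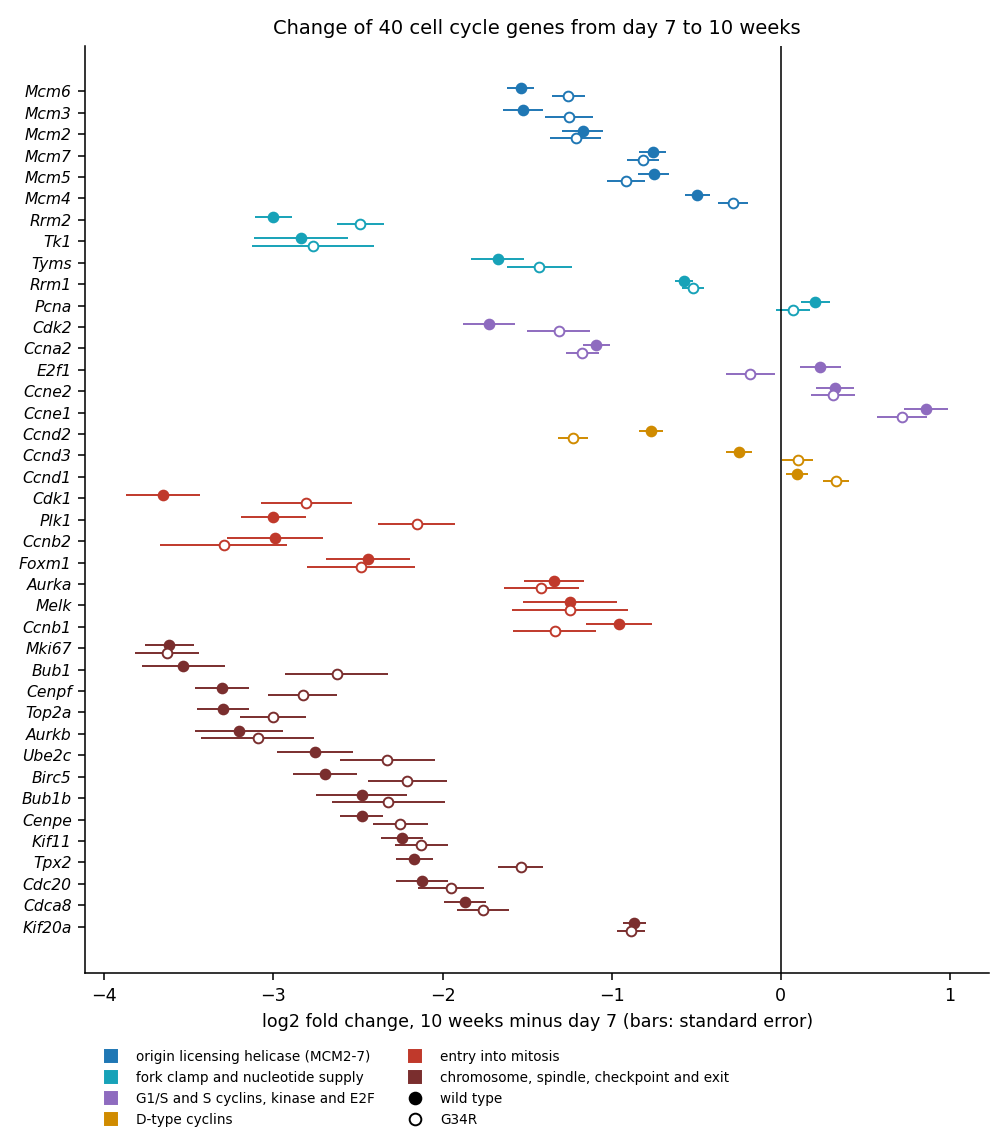
Log2 fold change from day 7 to 10 weeks (x axis) of each of the 40 genes (y axis, grouped and coloured by role) in wild type (filled, 4 pups and 6 adults) and G34R (open, 4 pups and 3 adults), with the standard error as bars. The mitotic genes lie farthest to the left, down to -3.65 for Cdk1, while Pcna, E2f1 and the cyclins E1, E2 and D1 lie near or to the right of 0.

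The loss was deepest in the mitotic genes. All 7 genes of entry into mitosis and all 14 genes of the chromosome, spindle, checkpoint and mitotic exit group were lower in WT at 10 weeks, with median log2 changes of -2.44 and -2.59. Mki67, which encodes the Ki-67 protein that coats mitotic chromosomes and marks cycling cells, was at 39.7, 33.5, 35.9 and 40.6 CPM in the 4 WT pups and at 2.25, 2.98 and 3.84 CPM as lowest, median and highest of the 6 WT adults. The groups lay far apart, and the log2 change of Mki67 was -3.62 ± 0.14 (± SE here and below; edgeR adjusted p = 1.15e-15).

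Cdk1, the kinase that drives entry into mitosis, was at 6.46, 5.29, 6.88 and 5.90 CPM in the WT pups and between 0.27 and 0.746 CPM (median 0.436) in the WT adults, on 11 to 58 counts per adult. Its fall of 3.65 ± 0.22 on the log2 scale was the largest of the 40 (edgeR adjusted p = 2.65e-13). Bub1, a kinase of the spindle checkpoint, went from 2.98 to 4.35 CPM in pups to 0.173 to 0.41 CPM in adults (log2 change -3.53 ± 0.25). Cenpf, a kinetochore protein, went from 12.5 to 16.9 CPM to 1.18 to 1.67 CPM (log2 change -3.31 ± 0.16). Top2a, the topoisomerase that untangles replicated chromosomes, went from 26.5 to 35.8 CPM to 2.62 to 3.83 CPM (log2 change -3.30 ± 0.15). For none of these 5 genes did a WT adult reach the range of the WT pups. The shallowest fall in the 2 mitotic groups was that of Kif20a, a kinesin of cytokinesis, from 13.8 ± 0.334 to 7.61 ± 0.189 CPM (SD, n = 4 and 6; log2 change -0.87); its exons overlap those of Cdc23, at 62.1 CPM in WT pups, and no source used here says whether the counting used strand.

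The genes of replication fell less evenly. All 6 MCM helicase subunits were lower in WT at 10 weeks, between -0.49 (Mcm4) and -1.54 (Mcm6) on the log2 scale. Mcm6 was at 23.9, 24.2, 23.5 and 24.6 CPM in the WT pups and at 7.38 to 9.33 CPM (median 8.30) in the WT adults, with no overlap (edgeR adjusted p = 1.62e-14). Mcm4 kept 71.3% of its mean level. The contrast was wider in the supply of nucleotides: Rrm2, the regulated small subunit of ribonucleotide reductase, went from 12.2 to 16.1 CPM in pups to 1.42 to 2.01 CPM in adults (log2 change -3.00 ± 0.11, edgeR adjusted p = 2.8e-17). Rrm1, the large subunit of the same enzyme, went only from 28.3 ± 1.28 to 19.1 ± 0.953 CPM (SD, n = 4 and 6; log2 change -0.57). Tk1 and Tyms, which make thymidine nucleotides, were also lower, by -2.84 and -1.68.

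For 7 of the genes, 300 bases around the start are printed. They run from 250 bases before to 50 bases after the RefSeq start on GRCm38.p6, the assembly that mm10 names. Cdk1, Ccnb2 and Top2a are examples of the mitotic genes, which as groups fell furthest. Mcm6 and Mcm3 are examples of the helicase. Pcna did not fall, and Rrm2 fell and is also among the genes called in adult mutants. Capitals mark the CCAAT box (CCAAT, or ATTGG on the other strand), the cell cycle homology region (TTTGAA, or TTCAAA) and an E2F core (TTCCCGC or TTGGCGC, or GCGGGAA and GCGCCAA), each searched on both strands. These are motifs named for NF-Y, for the MuvB-containing complexes and for E2F.
Cdk1, chr10:69352863-69353162, minus strand: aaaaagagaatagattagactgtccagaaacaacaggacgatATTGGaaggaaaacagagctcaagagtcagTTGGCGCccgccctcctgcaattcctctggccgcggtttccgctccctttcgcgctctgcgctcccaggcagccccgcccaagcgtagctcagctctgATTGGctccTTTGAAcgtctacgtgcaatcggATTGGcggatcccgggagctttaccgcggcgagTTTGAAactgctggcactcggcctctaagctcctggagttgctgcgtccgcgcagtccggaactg
Ccnb2, chr9:70421505-70421804, minus strand: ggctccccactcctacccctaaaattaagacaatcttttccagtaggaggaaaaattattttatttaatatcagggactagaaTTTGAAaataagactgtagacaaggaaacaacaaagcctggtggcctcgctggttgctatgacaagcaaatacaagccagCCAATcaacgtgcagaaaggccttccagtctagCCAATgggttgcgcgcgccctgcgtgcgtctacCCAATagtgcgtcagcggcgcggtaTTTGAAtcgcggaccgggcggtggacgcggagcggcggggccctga
Top2a, chr11:99024140-99024439, minus strand: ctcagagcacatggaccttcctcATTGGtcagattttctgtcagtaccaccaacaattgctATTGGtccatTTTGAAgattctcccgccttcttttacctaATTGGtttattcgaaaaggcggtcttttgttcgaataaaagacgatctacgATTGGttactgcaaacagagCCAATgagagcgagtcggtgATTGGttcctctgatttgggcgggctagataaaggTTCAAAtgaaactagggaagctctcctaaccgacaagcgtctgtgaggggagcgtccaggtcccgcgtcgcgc
Mcm6, chr1:128359656-128359955, minus strand: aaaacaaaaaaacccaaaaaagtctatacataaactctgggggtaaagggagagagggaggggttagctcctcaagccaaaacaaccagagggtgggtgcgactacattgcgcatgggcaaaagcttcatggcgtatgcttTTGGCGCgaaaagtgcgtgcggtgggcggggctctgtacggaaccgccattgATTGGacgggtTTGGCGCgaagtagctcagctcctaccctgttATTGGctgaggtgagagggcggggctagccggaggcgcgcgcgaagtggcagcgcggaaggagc
Mcm3, chr1:20820263-20820562, minus strand: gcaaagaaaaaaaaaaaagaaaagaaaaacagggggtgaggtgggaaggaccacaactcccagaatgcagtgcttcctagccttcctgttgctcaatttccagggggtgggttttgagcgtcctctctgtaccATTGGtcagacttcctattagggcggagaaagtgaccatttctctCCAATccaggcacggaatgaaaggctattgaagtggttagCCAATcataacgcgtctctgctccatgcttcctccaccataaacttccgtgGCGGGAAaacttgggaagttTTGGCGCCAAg
Pcna, chr2:132253131-132253430, minus strand: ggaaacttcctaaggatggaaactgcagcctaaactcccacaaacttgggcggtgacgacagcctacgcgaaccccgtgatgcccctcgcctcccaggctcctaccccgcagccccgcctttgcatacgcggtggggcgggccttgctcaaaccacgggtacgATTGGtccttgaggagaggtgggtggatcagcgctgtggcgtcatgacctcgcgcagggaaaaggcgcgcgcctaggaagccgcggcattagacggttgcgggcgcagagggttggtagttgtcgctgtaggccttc
Rrm2, chr12:24708004-24708303, plus strand: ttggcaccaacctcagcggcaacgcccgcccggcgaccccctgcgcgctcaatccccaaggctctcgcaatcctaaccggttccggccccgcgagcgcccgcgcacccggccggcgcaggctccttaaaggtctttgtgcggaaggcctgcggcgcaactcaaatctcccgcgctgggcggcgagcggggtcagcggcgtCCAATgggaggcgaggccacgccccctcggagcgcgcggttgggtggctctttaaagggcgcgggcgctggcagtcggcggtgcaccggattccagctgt

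The Cdk1 window held all 3 kinds of motif and the Ccnb2 and Top2a windows held the CCAAT box and the cell cycle homology region. Those of Mcm6 and Mcm3 held the CCAAT box and the E2F core with no TTTGAA, and in Mcm3 a TTGGCGC on each strand overlaps the other. Pcna and Rrm2 held a single CCAAT box and neither of the other 2 motifs as spelled here. The windows of Cdk1, Ccnb2 and Top2a each held TTTGAA 2 times. Among mitotic windows not printed, that of Bub1 (log2 change with age -3.53) held no TTTGAA, and that of Birc5 (-2.7) none of the 3 motifs. RefSeq gave 33 windows for 31 of the 40 genes. CCAAT was in 26 of the 33 windows (78.8%) and in 37.4% of all 32851 windows in the table. TTTGAA was in 13 of 33 (39.4%) against 17.9% of all windows, and an E2F core in 10 of 33 (30.3%) against 6.81%. Within the 40, TTTGAA was in 12 of 17 windows of mitotic genes (70.6%) and in 1 of 14 windows of replication and G1/S genes (7.14%), while an E2F core was in 3 of the 17 and 7 of the 14. These are counts of letters, with no test, and no binding was measured. Whether the motifs have a part in the changes with age was not tested.

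**Figure D2:**
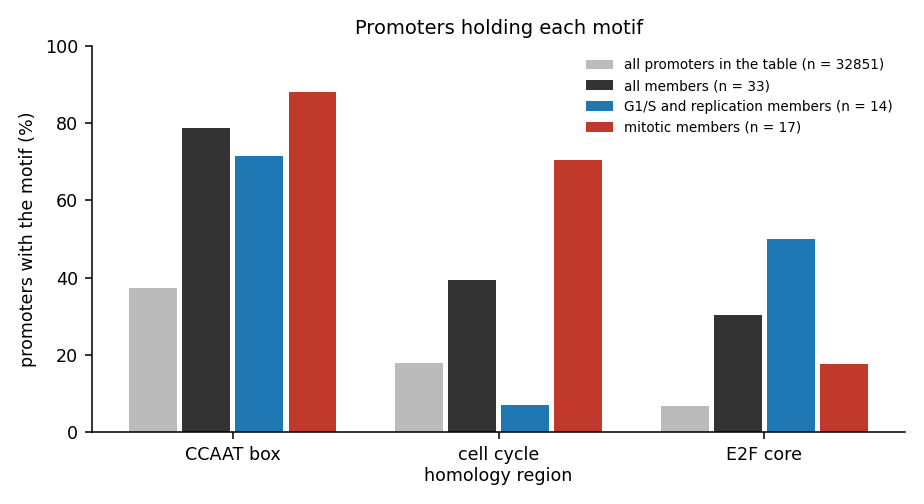
Share of promoter windows (y axis, percent) that hold each of 3 motifs on either strand (x axis), for all 32851 windows in the RefSeq table, the 33 windows of the cell cycle genes, their 14 replication and G1/S windows and their 17 mitotic windows. TTTGAA is in 70.6% of the mitotic windows and the E2F core in 50% of the replication and G1/S windows.

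A small set stayed at or above its day-7 level in the adult. Ccne1, whose cyclin E partners CDK2 at the start of S phase, was higher in WT at 10 weeks (7.16 ± 1.38 CPM in 4 pups, 13.1 ± 1.1 CPM in 6 adults, SD; log2 change 0.86, edgeR adjusted p = 3.03e-06). Ccne2, its paralogue, was at 7.49, 7.93, 7.75 and 8.72 CPM in the pups and at 7.39 to 11 CPM in the adults, of which animal 2 lay below all pups and the other 5 above them (log2 change 0.32 ± 0.11, adjusted p = 0.0143). Pcna was at 19.2, 20.6, 24.7 and 28 CPM in the pups and at 24.2 to 30.9 CPM in the adults. Its ranges overlapped, and its call (log2 change 0.20 ± 0.09, adjusted p = 0.0411) was lost in 6 of 22 fits that left out 1 animal.

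E2f1, which encodes the founding E2F activator, was not called with age (5.87 to 8.37 CPM in pups, 6.78 to 9.81 CPM in adults; log2 change 0.23 ± 0.12, edgeR adjusted p = 0.0906). Cdk2, the kinase that pairs with cyclins E and A, fell (log2 change -1.73), and Ccna2, cyclin A2 of S phase and G2, went from 16.1 to 19.2 CPM down to 7.16 to 8.53 CPM (log2 change -1.09 ± 0.08). Per kilobase of exon, Pcna at 11.1 CPM per kb and Ccnd1 at 8.82 CPM per kb were the most abundant of the 40 in adult WT cortex. Bub1 at 0.0738 CPM per kb was the least.

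The 3 D-type cyclins took 3 courses. Ccnd1, cyclin D1, was at 35.5, 41.9, 40.6 and 36.6 CPM in WT pups and 36.9 to 48.2 CPM in WT adults and was not called (log2 change 0.10 ± 0.07, edgeR adjusted p = 0.194). Ccnd2, cyclin D2, was at 94.5, 87.1, 92.4 and 96.2 CPM in the pups and 50.5 to 68.1 CPM (median 51.9) in the adults, with no overlap (log2 change -0.77 ± 0.07, adjusted p = 1.27e-09). Ccnd3, cyclin D3, was at 13.0 to 15.3 CPM and 10.3 to 13.1 CPM, and fell by 0.25 ± 0.08 on the log2 scale (adjusted p = 0.00725). Its ranges just overlapped, and its call was lost with males only (edgeR adjusted p = 0.0837).

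**Figure D3:**
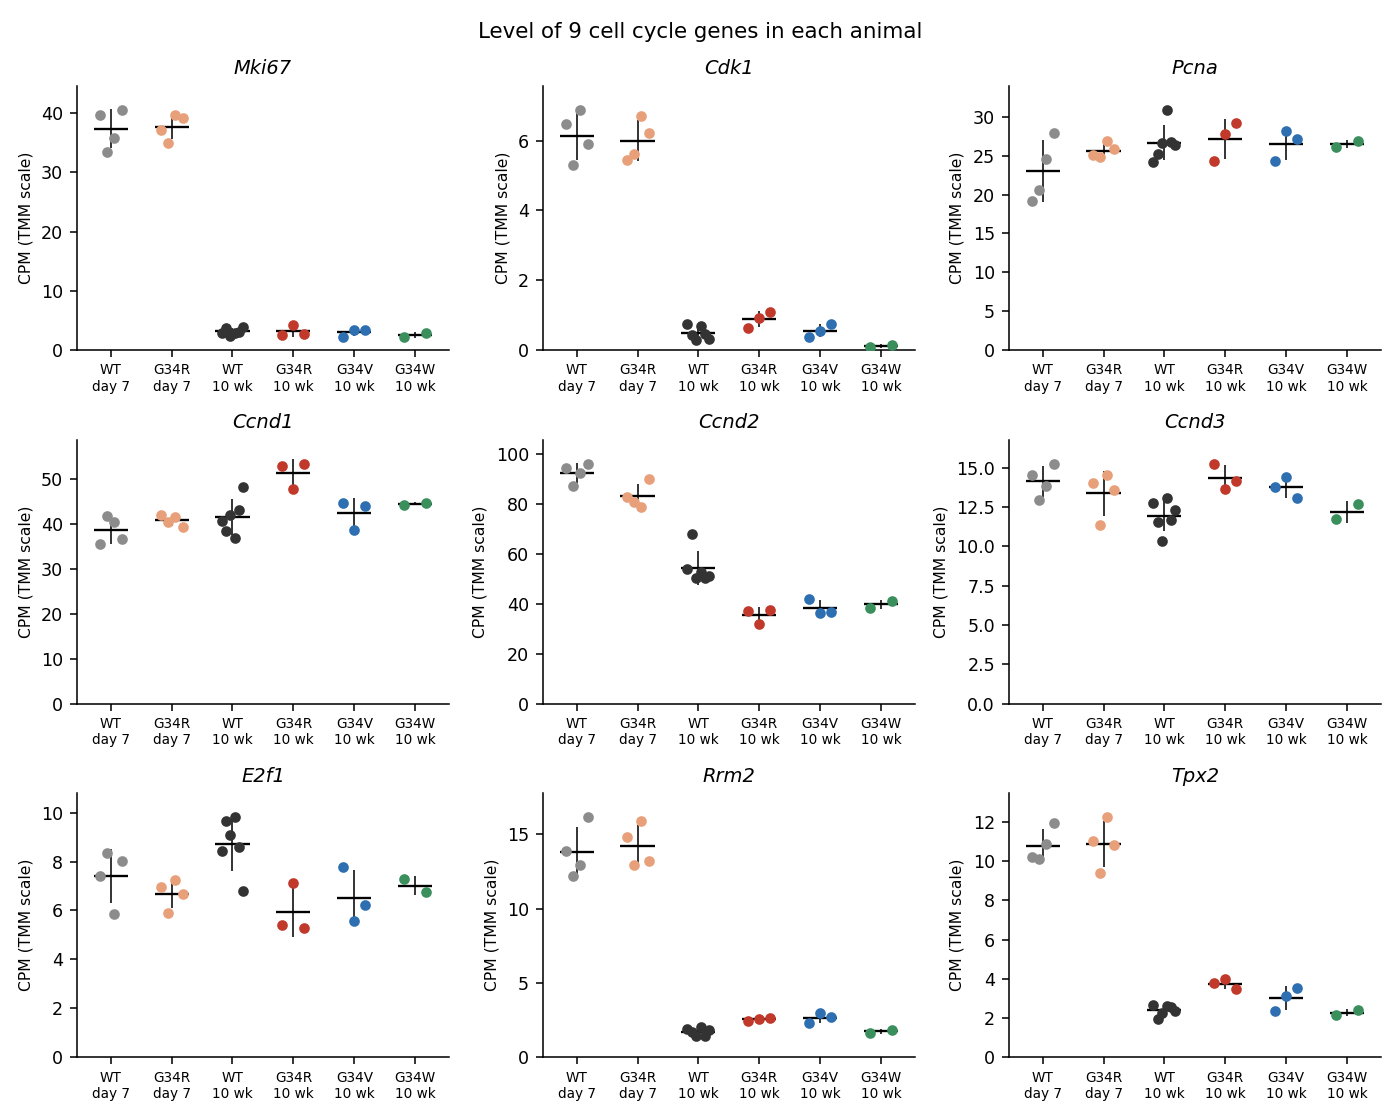
Level of 9 of the genes (y axis, CPM on the TMM scale) in each of the 22 animals, by genotype and age (x axis); each point is an animal, the horizontal line is the group mean and the vertical line is 1 SD either side. Mki67 and Cdk1 are low in all 14 adults, Pcna stays between 19.2 and 30.9 CPM, and the 8 adult mutants lie below the 6 adult WT animals for Ccnd2.

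In G34R cortex most of the genes fell with age as well. In G34R animals 34 of the 40 genes were lower at 10 weeks and 3 were higher (Ccne1, Ccne2 and Ccnd1), where 32.3% and 31.5% of all genes tested were lower and higher. Every G34R adult lay below every G34R pup for 34 of the 40 genes, against 32.8% of all genes tested. The median log2 change was -1.42 in G34R and -1.70 in WT, and 1 of the 40 genes, Ccnd2, passed the test of the difference between those changes, which is given below. Mki67, at 35.0 to 39.7 CPM in G34R pups, stood at 2.50, 4.24 and 2.62 CPM in the 3 G34R adults, so that none came near the pups.

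Other genes of the cell cycle, from lists of 30 further replication genes and 40 further G2 and mitosis genes, moved with age as well. Over all genes tested, 34.4% were lower and 33.3% higher in WT at 10 weeks. Of the replication list 22 were lower and 2 higher in WT at 10 weeks; Uhrf1, which carries DNA methylation through replication, fell by 2.67 and Pole, the catalytic subunit of polymerase epsilon, by 1.79 on the log2 scale. Of the G2 and mitosis list 39 of 40 were lower, with Ncapg and Ncaph of condensin I at -1.55 and -2.44. The exception was Anln, whose product anillin acts in cytokinesis and is also made by myelinating oligodendrocytes: it went from 6.80 to 35.8 CPM (log2 change 2.39). Among 17 genes for pocket proteins, E2F factors, MuvB subunits and G1 kinases, 8 were lower and 5 higher. That is nearer to the shares over all genes than the lists of 30 and 40 were. Cdk6 and Cdk4 had log2 changes of -3.14 and -0.83, and E2f6, a repressive E2F, had 0.89. Of the CDK inhibitors, Cdkn1c (-0.85), Cdkn1a (-0.98), Cdkn2c (-0.88) and Cdkn2d (-0.23) were lower in adult WT cortex; Cdkn1b (-0.11) and Cdkn2b (-0.64) were not called, and Cdkn2a, at a mean of 0.09 CPM or less in each group, was not tested.

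Markers of the cell types that can divide moved with age too, in both directions. The shares over all genes tested were 34.4% lower and 33.3% higher in WT at 10 weeks. The summed level of 8 neural progenitor and immature neuron markers was 549.1 to 703.5 CPM in WT pups and 55.8 to 60.8 CPM in WT adults, with 5 of 8 lower, Dcx furthest at -4.95. The 8 oligodendrocyte precursor markers summed to 381.5 to 442 CPM in the pups and 206.9 to 249.7 CPM in the adults, with 6 of 8 lower and 2 higher. The 8 microglial markers summed to 164 to 182 CPM and 349.9 to 389.6 CPM, with 7 of 8 higher. Their part in the changes of the cell cycle genes was not tested.

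At day 7 no call separated G34R from WT pups among these genes. None of the 40 was called by edgeR, where 0.308% of the 20451 genes tested were called; 2 of the 40 had an unadjusted p under 0.05, and DESeq2 called 0. By sign 30 of the 40 were above 0, and the median log2 difference was 0.05 over the 40 and 0.00 over all genes. Ccnd2 was at 82.7, 80.9, 78.7 and 90.1 CPM in the G34R pups, which reach into the range of the WT pups (log2 change -0.15 ± 0.05, edgeR adjusted p = 0.488). The summed level of the 37 genes other than the D-type cyclins was 358 to 421 CPM in WT pups and 383.9 to 429.6 CPM in G34R pups.

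The adult mutants stayed far below the pups in the summed level of the proliferative genes. The same 37 genes summed to 164.6 to 180.2 CPM in 10-week WT, 170.0 to 186 CPM in G34R, 159 to 185 CPM in G34V and 156.1 to 160.2 CPM in G34W animals. Over the 37 genes G34R overlapped WT, G34V spanned it, and the G34W animals lay below it. The chromosome, spindle, checkpoint and exit group summed to 24.3 to 28.9 CPM in WT adults. It summed to 29.9 to 35.95 CPM in G34R, 25.35 to 36.3 CPM in G34V and 23.2 to 26.55 CPM in G34W. The helicase summed to 43.4 to 49.2 CPM in WT and 49.65 to 51.4 CPM in G34R. It stood at 42.0 to 49.9 CPM in G34V and 39.8 to 42.5 CPM in G34W. G34R lay above WT for both groups and overlapped it for the other role groups. No sum was tested. Mki67 was at 3.10 ± 0.593 CPM in WT, 3.12 ± 0.974 CPM in G34R, 2.93 ± 0.625 CPM in G34V and 2.54 ± 0.518 CPM in G34W (SD, n = 6, 3, 3 and 2), that is 8.30%, 8.34%, 7.83% and 6.80% of the WT pup mean. It was not called in any mutant (edgeR adjusted p = 0.995, 0.921 and 0.619).

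**Figure D4:**
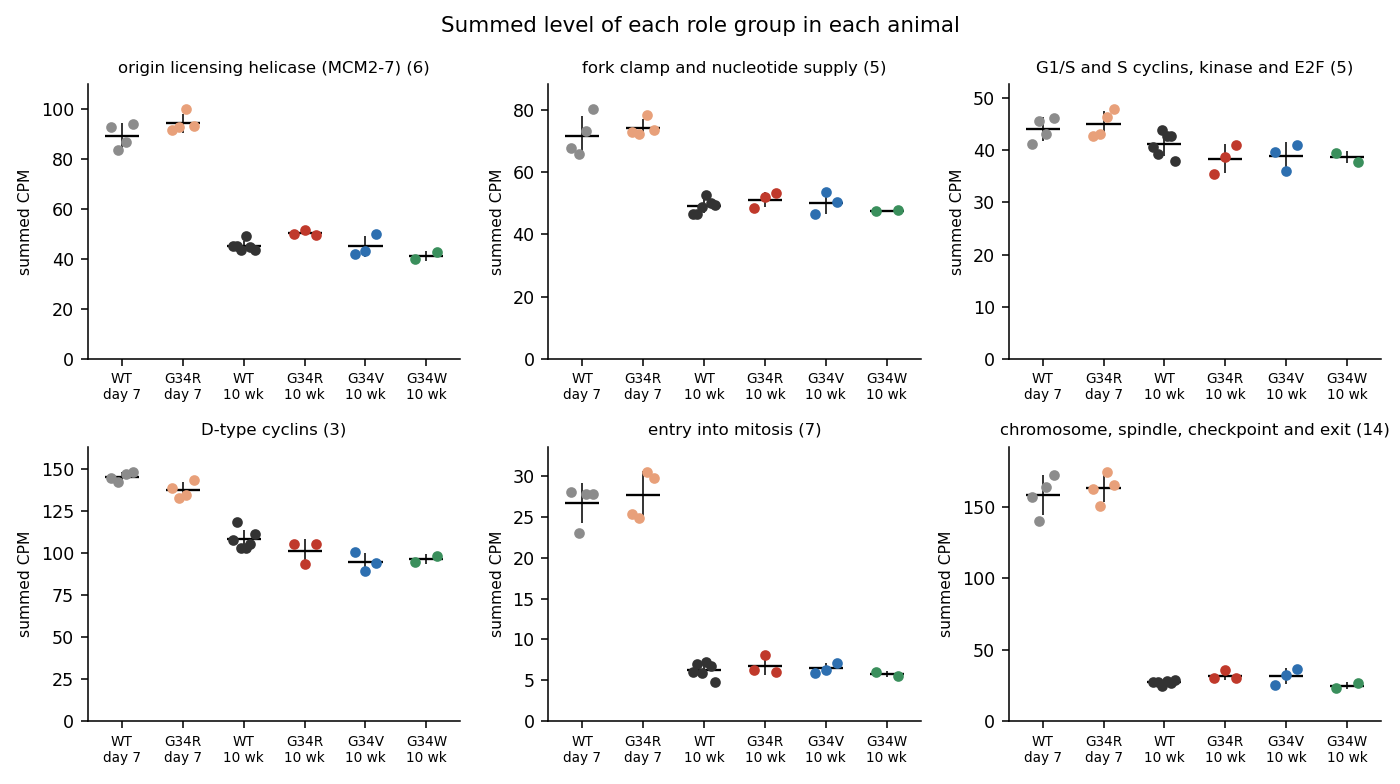
Summed CPM (y axis) of each of the 6 role groups in each animal, by genotype and age (x axis), with the number of genes in brackets; lines show the mean and 1 SD. All 14 adults lie below all 8 pups for the 2 mitotic groups, the helicase, the nucleotide supply and the D-type cyclins.

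At 10 weeks 5 of the 40 genes differed between G34R and WT, where 5.61% of the 21274 genes tested were called. Of the 5, 3 were higher (2.95% of all genes) and 2 lower (2.66% of all genes). A further 7 had an unadjusted p under 0.05 only. By sign 30 of the 40 were above 0 in G34R adults, the same number as in the G34R pups. The median log2 change was 0.20 over the 40 and 0.00 over all genes. Each mutant at 10 weeks was compared with the same 6 WT animals, so the 3 comparisons share their controls. With called genes included, 12, 7 and 3 of the 40 had an unadjusted p under 0.05 in G34R, G34V and G34W. The share of all genes under that unadjusted threshold is not given here, so these counts are not read further.

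Ccnd2 was the clearest of the 5 and was lower in all 3 mutants. It was at 54.1, 68.1, 50.5, 52.8, 50.5 and 51.0 CPM in the WT adults (lowest 50.5, median 51.9, highest 68.1). The G34R adults were at 37.2, 31.7 and 37.6 CPM, the G34V adults at 42.0, 36.4 and 36.8 CPM and the G34W adults at 38.5 and 41.0 CPM, so that all 8 mutants lay below all 6 WT animals. The change was -0.62 ± 0.09 on the log2 scale in G34R (0.651-fold, edgeR adjusted p = 0.00048), -0.50 ± 0.09 in G34V (0.705-fold, adjusted p = 0.00402) and -0.45 ± 0.11 in G34W (0.73-fold, adjusted p = 0.0472). Adult WT cortex kept 58.9% of the WT pup mean, and G34R, G34V and G34W adults 38.3%, 41.5% and 42.9%. In G34V and G34W, where 4.25% and 1.61% of the genes tested were called, Ccnd2 was 1 of 2 and the only one of the 40 called.

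The G34R and G34V calls of Ccnd2 held in all 23 alternative fits. Within the 6 libraries of lower mitochondrial share the G34R change was -0.51 (adjusted p = 0.00511), within the 9 of higher share the G34V change was -0.55 (adjusted p = 0.013), and without WT animal 2, the highest, they were -0.54 and -0.43 (adjusted p = 8.02e-05 and 0.00122). The G34W call, on 2 animals, was lost in 7 of 14 fits that left out 1 animal (adjusted p up to 0.238), within the 9 libraries (0.101) and with number runs as a block (log2 -0.35, adjusted p = 0.182). Ccnd2 lies at chr6:127125162-127152193 on the minus strand of mm10 and shares exon sequence with 2 antisense genes. Of these, 9330179D12Rik was at 2.45 CPM in WT and 1.52, 1.1 and 1.5 CPM in G34R, G34V and G34W adults, lower in G34V (log2 change -1.15, adjusted p = 0.00475); without the strand setting its reads and those of Ccnd2 cannot be told apart.

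The other D-type cyclins did not follow Ccnd2. Ccnd1 was at 52.9, 47.8 and 53.5 CPM in G34R adults, above 5 of the 6 WT animals and overlapping the highest at 48.2 CPM (log2 change 0.31 ± 0.07, edgeR adjusted p = 0.0184), a call lost without G34R animal 1 (0.099) or 3 (0.0932). It was at 44.7, 38.6 and 43.9 CPM in G34V and 44.2 and 44.8 CPM in G34W, within the WT range (adjusted p = 0.899 and 0.571). Ccnd3 was at 15.2, 13.7 and 14.2 CPM in G34R, just above the WT range of 10.3 to 13.1 CPM, and was not called (log2 change 0.26, adjusted p = 0.0731; by DESeq2 0.0387). The exons of Ccnd1 and Ccnd3 overlap those of protein-coding genes on the other strand.

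E2f1 was lower in G34R. The WT adults were at 6.78 to 9.81 CPM (median 8.84) and the G34R adults at 5.41, 7.13 and 5.27 CPM, of which 1 lay inside the WT range (log2 change -0.57 ± 0.14, edgeR adjusted p = 0.0205). The call was lost without G34R animal 1 or 3, with adjusted p up to 0.139, and held within the 6 libraries of lower mitochondrial share (0.0275). The levels were 7.78, 5.55 and 6.20 CPM in G34V and 7.29 and 6.74 CPM in G34W (edgeR adjusted p = 0.102 and 0.324), and DESeq2 called the G34V difference (log2 -0.43, adjusted p = 0.0448).

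Of the replication genes, Rrm2 was higher in G34R and in G34V. WT adults were at 1.90, 1.71, 1.44, 2.01, 1.42 and 1.85 CPM, G34R adults at 2.46, 2.55 and 2.62 CPM and G34V adults at 2.28, 2.96 and 2.69 CPM. All 6 of these mutants lay above all WT animals, while the G34W adults at 1.64 and 1.86 CPM lay among them. The change was 1.47-fold in G34R (log2 0.56 ± 0.16, edgeR adjusted p = 0.0482) and 1.54-fold in G34V (0.62 ± 0.16, adjusted p = 0.0324), which left Rrm2 at 18.4% and 19.2% of the WT pup mean against 12.5% in WT adults. The G34R call held in only 1 of 14 fits that left out 1 animal (adjusted p 0.035 to 0.161) and was lost within the 6 libraries (log2 0.55, adjusted p = 0.209) and with number runs as a block (log2 0.37, adjusted p = 0.421). The G34V call was lost in 4 of 14 (up to 0.184), within the 9 libraries (0.70, adjusted p = 0.0698) and with that block (0.75, adjusted p = 0.123). None of the 6 helicase subunits was called in any mutant. Mcm6 came nearest, at 10.5, 9.98 and 11.4 CPM in G34R above the WT range of 7.38 to 9.33 CPM (log2 change 0.35, adjusted p = 0.0637; by DESeq2 0.0261).

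Of the 21 mitotic genes 1 was called. Tpx2, which carries Aurora A to the spindle, was at 3.81, 3.99 and 3.46 CPM in G34R adults and at 1.94 to 2.69 CPM (median 2.46) in WT adults, with no overlap (1.56-fold, log2 0.64 ± 0.15, edgeR adjusted p = 0.0144). It was at 34.8% of the WT pup mean in G34R and 22.3% in WT. The call was lost without G34R animal 1 or 2, with adjusted p up to 0.0748, within the 6 libraries (log2 0.61, adjusted p = 0.0722) and with number runs as a block (log2 0.51, adjusted p = 0.176). G34V adults were at 2.36, 3.15 and 3.55 CPM and G34W adults at 2.14 and 2.39 CPM (adjusted p = 0.299 and 0.852). Plk1, a kinase of mitotic entry, was at 0.729, 0.849 and 0.593 CPM in G34R against 0.288 to 0.457 CPM in WT, on 10 to 26 counts per WT animal, and was not called (log2 0.98 ± 0.29, adjusted p = 0.0555; by DESeq2 0.0391).

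Cdk1 showed how little signal is left in the adult. Its G34R adults were at 0.634, 0.905 and 1.09 CPM, its G34V adults at 0.363, 0.539 and 0.727 CPM and its G34W adults at 0.0764 and 0.149 CPM, the last on 2 and 6 counts. The WT adults ran from 0.27 to 0.746 CPM, so the G34W animals lay below them and the G34R animals reached above them, but no difference was called by edgeR (adjusted p = 0.209, 0.884 and 0.0956), while DESeq2 called the G34W difference (log2 -2.03, adjusted p = 0.0495). The remaining mitotic genes had edgeR adjusted p of at least 0.162 in all 3 mutants. In G34R 13 of the 14 genes of the chromosome, spindle, checkpoint and exit group were above 0, in G34V 10 and in G34W 3, with median log2 changes of 0.28, 0.28 and -0.09. In the G34R pups 11 of the 14 were above 0, with a median of 0.06.

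**Figure D5:**
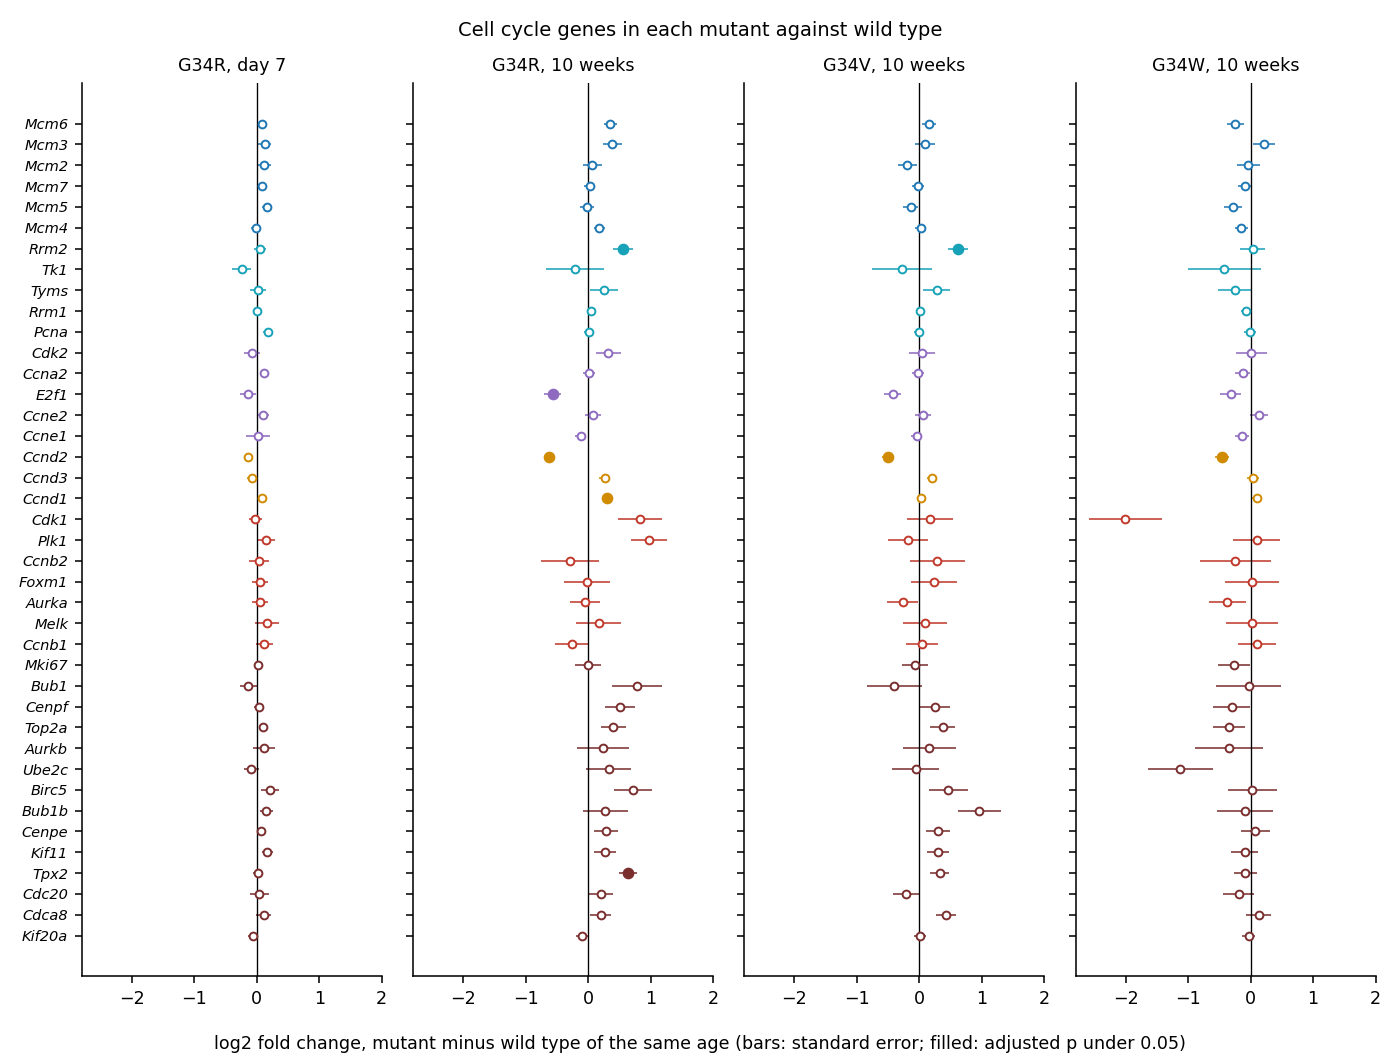
Log2 fold change against wild type of the same age (x axis) for each of the 40 genes (y axis, in the order and colours of the plot of change with age) in G34R at day 7 and in G34R, G34V and G34W at 10 weeks; bars are standard errors and filled points passed an adjusted p of 0.05. No point is filled at day 7, 5 are filled in G34R, 2 in G34V and 1 in G34W, and Ccnd2 is filled in all 3 adult panels.

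The G34R effect was compared between ages in 1 fit of all 22 animals. Ccnd2 was the 1 gene of the 40 called, where 1.16% of the 22417 genes tested were called: its G34R change was more negative at 10 weeks than at day 7 by -0.46 ± 0.11 on the log2 scale (edgeR adjusted p = 0.0432). This call was lost in 13 of 22 fits that left out 1 animal (adjusted p up to 0.163) and with males only (0.242). For Tpx2 the difference was 0.63 ± 0.17 (edgeR adjusted p = 0.0782), which DESeq2 called (0.62, adjusted p = 0.0238). For Rrm2 it was 0.52 ± 0.17 (edgeR adjusted p = 0.192). In all, 10 of the 40 had an unadjusted p under 0.05 for the difference, Ccnd2 among them. By sign 25 of the 40 differences were above 0, with a median of 0.113 over the 40 and -0.0003 over all genes.

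Among the other cell cycle genes, the list of pocket proteins, E2F factors, MuvB subunits and G1 kinases held the calls at 10 weeks that both G34R and G34V shared. E2f2, an E2F activator, was at 1.16, 0.624, 0.762, 1.36, 1.17 and 1.1 CPM in WT adults, at 0.337, 0.283 and 0.42 CPM in G34R, at 0.363, 0.157 and 0.235 CPM in G34V and at 0.687 and 0.547 CPM in G34W. The G34R and G34V animals lay below all WT animals (log2 change -1.56, edgeR adjusted p = 0.00744, and -2.03, adjusted p = 0.00207), on 7 to 25 counts per mutant. The G34R call was lost within the 6 libraries of lower mitochondrial share (log2 -1.54, adjusted p = 0.0669), and the G34V call with number runs as a block (log2 -1.46, adjusted p = 0.105). At day 7 E2f2 was at 1.13 to 1.81 CPM in WT and 1.41 to 1.88 CPM in G34R, and the G34R effect differed between ages by -1.77 (adjusted p = 0.0155). Mybl2, the B-Myb subunit that turns the MuvB complex into an activator, was at 0.0693 to 0.231 CPM in WT adults, at 0.418, 0.396 and 0.346 CPM in G34R and at 0.519, 0.449 and 0.513 CPM in G34V, with no overlap (log2 change 1.55, adjusted p = 0.0499, and 1.90, adjusted p = 0.0173), on 3 to 12 counts per WT animal. For Mybl2 the G34R call was lost in 10 of 14 fits that left out 1 animal (adjusted p up to 0.177), within the 6 libraries (0.106) and with number runs as a block (0.0774). The G34V call was lost without G34V animal 1 (0.0741), 2 (0.0549) or 3 (0.0654), within the 9 libraries (0.133) and with that block (0.113). Mybl2 was at 1.25 CPM in WT pups.

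The longer lists changed little between genotypes. Of 30 replication genes none was called by edgeR in G34V or G34W adults, with 2 and 3 at an unadjusted p under 0.05. Of 40 G2 and mitosis genes 1 was higher in G34R, Cenpa, the centromeric histone H3 variant (log2 0.84, edgeR adjusted p = 0.04), and 1 was lower in G34W, Anln (30.7 to 45.4 CPM in WT, 20.6 and 21.9 CPM in G34W; log2 -0.75, adjusted p = 0.00891). No CDK inhibitor tested was called in any mutant, with 1 of the 6 at an unadjusted p under 0.05 in each: mean levels in WT, G34R, G34V and G34W adults were 6.49, 5.51, 7.30 and 5.59 CPM for Cdkn1a, 45.7, 50.1, 52.4 and 50.2 CPM for Cdkn1b, and 28.3, 30.3, 28.8 and 29.3 CPM for Cdkn2d. The others were lower still, Cdkn1c at 4.76 to 5.88 CPM, Cdkn2c at 1.52 to 2.44 CPM and Cdkn2b at 0.264 to 0.539 CPM as group means.

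Markers of microglia moved with the same comparisons. The 8 microglial markers summed to 349.9 to 389.6 CPM in WT adults, 568.3 to 636.9 CPM in G34R, 425 to 531 CPM in G34V and 393 to 441 CPM in G34W, with 7, 5 and 1 of the 8 higher; Cx3cr1, the fractalkine receptor, was higher in G34R by 0.67 on the log2 scale. In pups they summed to 164 to 182 CPM in WT and 199.8 to 225 CPM in G34R, with 3 of 8 higher. Of 8 markers of disease-associated microglia 6, 4 and 4 were higher in the 3 adult mutants, among them Cst7, which was near 0 in WT adults (mean 0.0418 CPM) and at 4.43 CPM in G34R. The disease-associated list summed to 1041 to 1139 CPM in WT adults and 1318 to 1459 CPM in G34R. In G34V it summed to 1065 to 1130 CPM, inside the WT range, and in G34W to 985.6 to 1025 CPM, below it. By sign 7, 5 and 5 of its 8 markers were above 0 in G34R, G34V and G34W. Of 8 astrocyte markers 1, Gfap, was higher in each mutant. No oligodendrocyte precursor marker was called in G34R or G34W and 1 of 8, Olig1, was lower in G34V; the list summed to 206.9 to 249.7 CPM in WT, 206 to 233 CPM in G34R, 185 to 201 CPM in G34V and 214 to 217 CPM in G34W. No cortical neuron or neural progenitor marker was called in an adult mutant. The part of these cell types in the changes of Ccnd2, Ccnd1, E2f1, Rrm2 and Tpx2 was not tested.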

How the data were processed

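RNA was ribosomal-RNA-depleted total RNA from pulverized cortex. Reads were trimmed with Trimmomatic 0.32, aligned to mm10 with STAR 2.3.0e and counted per gene with featureCounts 1.4.4, and bedtools 2.27.1 is also named, per the submitters' processing notes. The annotation release and whether strand was used in counting are not given here. The deposited table holds raw counts by the authors for 39017 genes in 23 libraries of 22 animals; the 2 libraries of 1 WT animal differed beyond sampling noise and were summed. Gene positions came from GENCODE on GRCm38.

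Counts were tested with edgeR 4.0.16 in R 4.3.3 (TMM, filterByExpr, robust quasi-likelihood test, Benjamini-Hochberg adjustment over all genes tested, threshold 0.05) in a fit of 14 animals at 10 weeks, a fit of 8 pups with sex as covariate, and a fit of all 22 animals for age. Xist, Tsix and Y-linked genes were left out. The standard error is the log2 change divided by the square root of the F statistic. Where nothing says that animals come from separate litters, p-values measure the spread between these animals. The method was tested on simulated counts.

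The 40 genes and the lists were chosen with earlier results of these data known. Values are given for genes called between genotypes or ages, for the 5 largest and 5 smallest changes with age in WT, for examples of each role with the smallest adjusted p, for up to 3 called genes of each other list, and for every CDK inhibitor tested. Alternatives were RLE scaling, no filter, DESeq2 1.42.0, fewer groups, covariates, single libraries and leaving out each animal. Fits within the 2 sets of libraries of unlike mitochondrial share were chosen after seeing the data. Some results for genes of the other lists are not reported here.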

Additional observations from a re-analysis of the deposited data

Results flagged for a closer look

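In 6 of the 120 groups of animals examined (each of the 40 genes in each of the 3 groups of at least 4 animals), 1 animal stood far from the rest of its group. Chance gives about 1 group in 20. Among WT adults, animal 2 had the lowest Ccne2 level at 7.39 CPM (the others 10.1 to 11 CPM) and the highest Ccnd2 level at 68.1 CPM (the others 50.5 to 54.1 CPM), and animal 5 had the lowest Mcm7 level at 8.92 CPM (the others 10.3 to 11 CPM). Among pups, G34R animal 1 had the highest Birc5 level at 3.64 CPM (the others 2.91 to 3.03 CPM) and G34R animal 3 the highest Mcm7 level at 19.8 CPM (the others 17.8 to 18.1 CPM). WT pup 4 had the highest Cdca8 level at 6.55 CPM (the others 4.77 to 5.03 CPM).

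The G34R effect differed between ages for 2 genes by edgeR's test of the difference itself: Ccnd2 by -0.46 (adjusted p = 0.0432) and E2f2 by -1.77 (adjusted p = 0.0155) on the log2 scale. For E2f2 the call was lost without G34R adult 1 (adjusted p = 0.0663) or 2 (0.0564) and with males only (0.153).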

How the results depend on the processing

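Leaving out 1 animal at a time gave 1 to 7 of the 40 genes called in G34R adults (5 with all animals; 1 without G34R animal 1, 3 without animal 2 and 2 without animal 3), 1 to 3 in G34V adults (2 with all), 0 to 1 in G34W adults (1 with all) and 0 to 2 for the difference between ages (1 with all). At day 7 it gave 0 throughout, and in WT with age 35 lower genes throughout and 2 to 3 higher. DESeq2 called 8 genes in G34R, 3 in G34V, 2 in G34W, where 37 of the 40 had an adjusted p, and 2 for the difference between ages. A block for each run of consecutive animal numbers gave 3 in G34R, 1 in G34V and 0 in G34W. The 6 libraries of lower mitochondrial share gave 3 in G34R, and the 9 of higher share 1 in G34V and 0 in G34W. In G34V, no filter and the compared groups alone each gave 1. In G34W, the compared groups alone, sex as a covariate and library 1 alone of the animal with 2 libraries each gave 0. Males only gave 0 for the difference between ages. The cause was not tested, beyond the fewer animals in those fits that leave some out. No direction turned in any alternative. Animals cannot be paired one to one, since each has a number of its own, and the labels do not say what a run of consecutive numbers marks. Depth limits the lowest mitotic genes in adults (Cdk1 with 2 and 6 counts in G34W, Bub1 with 6 to 34 in WT), while others had more (Top2a 69 to 332 and Kif20a 170 to 678 over the adults).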

Other observations

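The WT adult with 2 libraries gives a view of the spread between libraries of 1 animal. Scaled on their own, its libraries stood at 44.6 and 50.9 CPM for Ccnd2, 9.46 and 7.87 CPM for E2f1, 1.26 and 1.45 CPM for Rrm2, and 0.495 and 0.925 CPM for E2f2.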
